A study of Mus musculus with 13 samples.

Results

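The Notch genes described here are 10 genes of the 25965 in the deposited expression table of mouse embryonic fibroblasts: the receptors Notch1, Notch2 and Notch3, the ligands Jag1 and Dll1, and the target genes Nrarp, Heyl, Hey1, Hey2 and Hes1. They were selected by name, as a pathway of which several target genes were already known to be lower in these libraries after 5-azacytidine (5-aza), a drug that blocks the maintenance of DNA methylation. Their levels with and without 5-aza are therefore given as a description, without a test. Poly(A) RNA was measured in 4 groups of 3 libraries from primary XXist∆A/XPGK fibroblasts of E13.5 embryos, all transduced with a retroviral hairpin and selected with puromycin. The control hairpin group held a hairpin against Luciferase (replicate 1) and a non-silencing hairpin (replicates A and B), and the Setdb1 hairpin group held shSetdb1.6 (replicate 1) and shSetdb1.4 (replicates A and B). Each of these 6 hairpin replicates was sequenced without 5-aza and after 24 h of 5-aza begun on day 3, with harvest on day 7. Libraries that share a hairpin and a replicate label are called a culture here, although no label states that they came from the same cells. Per the study, the cells that received Setdb1 hairpins carried a gene-trap allele of Setdb1 and those with the non-silencing hairpin were wild type; the genotype of the cells with the Luciferase hairpin was not stated. The effect of the hairpin and that of the genotype cannot be told apart.

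Notch signalling passes between touching cells. A ligand of the Jagged or Delta family on one cell binds a Notch receptor on its neighbour, the receptor is cut by ADAM proteases and gamma-secretase, and its released intracellular part joins the DNA-binding protein Rbpj and Mastermind coactivators to switch on target genes. The Hes and Hey targets encode basic helix-loop-helix repressors, and Nrarp encodes an ankyrin-repeat protein that lowers Notch signalling in turn. In mesenchymal cells Notch2, Notch3 and Jag1 are known for their part in smooth muscle and pericyte development, where Heyl and Hey2 are common readouts.

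Levels are given as RPM, a gene's read count normalised to the size of its library, and the libraries held 36.4 to 51.3 M reads in genes. Setdb1, the H3K9 methyltransferase targeted by the hairpins, lay between 42.7 and 46.4 RPM in the 6 control hairpin libraries and between 10.5 and 15.4 RPM in the 6 Setdb1 hairpin libraries. The fibroblast label was checked on 9 marker genes, and all 9 passed the expression filter, at a summed 14008 to 23490 RPM in the hairpin libraries. Smooth muscle and pericyte markers, also fixed as a list, summed to 9982 to 12086 RPM in the 12 hairpin libraries, with 8 of 8 tested. Endothelial markers summed to 4.45 to 8.41 RPM there, with 3 of 7 tested and Tie1 at 1 read or none. The 6 macrophage markers summed to 10 to 14 RPM, with 2 tested: Csf1r lay between 7.12 and 9.85 RPM and Cd68 between 1.52 and 3.11 RPM, while Adgre1 and Fcgr1 had at most 4 and 3 reads.

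RefSeq (GRCm38.p6) held a promoter entry for 7 of the 10 genes, and none was given for Heyl, Hey1 or Hes1. The 250 bases before the start are shown for Nrarp, Hey2 and Jag1, the genes with an entry that were clearly lower after 5-aza, since 5-aza acts on methylation at CpG sites. Capitals mark a match, on either strand, to the usual word of the Rbpj protein (GTGGGAA), to its variant with another middle letter (GTGAGAA) or to the shorter core TGGGAA, which lies inside the usual word.
Nrarp (chr2:25180508-25180757, plus strand): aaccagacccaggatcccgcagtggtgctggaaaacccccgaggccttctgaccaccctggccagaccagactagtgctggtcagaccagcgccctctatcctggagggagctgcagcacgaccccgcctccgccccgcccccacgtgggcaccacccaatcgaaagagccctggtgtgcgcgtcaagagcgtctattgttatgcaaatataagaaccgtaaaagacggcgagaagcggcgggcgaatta
Hey2 (chr10:30842784-30843033, minus strand): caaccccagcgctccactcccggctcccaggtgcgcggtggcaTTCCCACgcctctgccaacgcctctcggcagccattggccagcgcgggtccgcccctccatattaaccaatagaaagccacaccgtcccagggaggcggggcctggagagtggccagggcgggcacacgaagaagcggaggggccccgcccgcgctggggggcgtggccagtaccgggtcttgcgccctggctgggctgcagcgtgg
Jag1 (chr2:137116521-137116770, minus strand): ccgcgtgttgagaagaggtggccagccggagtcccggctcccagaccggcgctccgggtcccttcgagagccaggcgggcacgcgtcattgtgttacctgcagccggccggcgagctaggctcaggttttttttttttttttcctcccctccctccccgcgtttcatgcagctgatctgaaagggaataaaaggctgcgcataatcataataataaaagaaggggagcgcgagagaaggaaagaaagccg
Hey2 held GTGGGAA on the reverse strand, 207 to 201 bases before the start, and the Nrarp and Jag1 windows held none of the words. Of 32851 windows of this length, 5.42% held GTGGGAA, 3.83% held GTGAGAA and 21.6% held TGGGAA. A match is a description of the letters and not a binding site. The windows were rich in CpG, with 18 in Nrarp, 22 in Hey2 and 20 in Jag1, against a median of 6 over all windows. The other windows of the Notch genes ranged from 13 CpG (the upstream of the Dll1 starts) to 34 (Notch2), with Nrarp, Hey2 and Jag1 inside that range.

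Among the genes, levels were compared per kilobase of exon. In control hairpin cells Jag1 was highest at 33.3 ± 1.37 RPM per kb (SD, n = 3), followed by Hes1 at 26.4 ± 1.58 and, well below, Notch2 at 7.94 ± 0.604. Notch3 (3.73 ± 0.133) and Notch1 (2.67 ± 0.0809) came next, then Heyl (2.09 ± 0.779), Hey2 (2.07 ± 0.344), Hey1 (1.05 ± 0.0682) and Nrarp (0.752 ± 0.191 RPM per kb). Heyl overlapped with both of its neighbours, since its libraries reached from 1.19 to 2.6 RPM per kb while Notch1 began at 2.58 and Hey2 ended at 2.33, and the remaining neighbours did not overlap. Dll1 was at 0.016 ± 0.00403 RPM per kb and had 0 to 8 reads in any hairpin library, too few to be tested; 9 of the 10 genes passed the filter of at least 1 RPM in at least 3 libraries. With Setdb1 hairpins and 5-aza together the order was Hes1 (22.9 ± 1.97 RPM per kb), Jag1 (12.4 ± 0.951), Notch2 (8.7 ± 0.2), Notch3 (3.16 ± 0.724), Notch1 (2.01 ± 0.204), Hey2 (0.641 ± 0.0848), Hey1 (0.553 ± 0.0751), Heyl (0.31 ± 0.21) and Nrarp (0.163 ± 0.0542). Here Hes1 stood above Jag1 without overlap, whereas Notch3 overlapped with no neighbour, Hey1 overlapped with both Hey2 and Heyl, and Heyl overlapped with Nrarp.

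**Figure D1:**
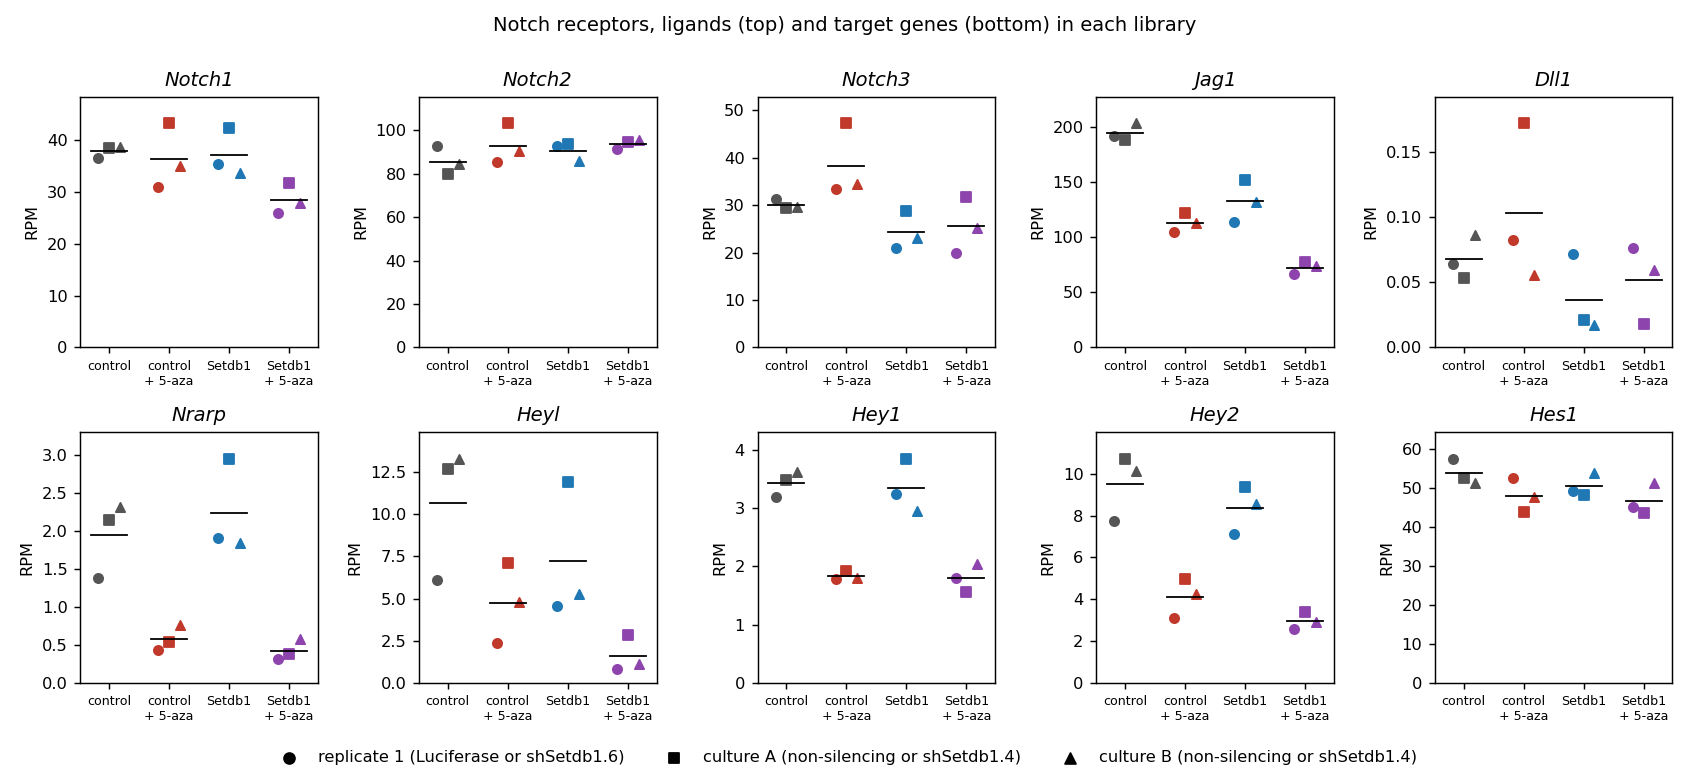
RPM (y axis, linear, from 0) of the 10 Notch genes in each of the 12 hairpin libraries, by group (x axis); circles are replicate 1, squares culture A, triangles culture B, and lines the group means. Nrarp, Hey1, Hey2 and Jag1 had each 5-aza library below each untreated library of the same hairpin, Heyl overlapped between the control hairpin groups, and Hes1 and Notch2 overlapped between the groups with and without 5-aza of the same hairpin, while Notch3 was highest in control culture A with 5-aza (47.2 RPM). The pathway was chosen on its response to 5-aza, and the share of all genes separated in this way was not counted.

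Of the target genes, Nrarp, Hey2, Hey1 and Heyl were lower with 5-aza in every culture by more than 0.5 on the log2 scale. They include those the pathway was chosen on. The share of all genes that did the same, or whose groups with and without 5-aza did not overlap, was not counted. Of all genes tested, 18.8% and 28.9% were called with 5-aza in control and Setdb1 hairpin cells, in either direction. Nrarp (chromosome 2, 25180758 to 25183330 in GRCm38) was at 1.38, 2.14 and 2.31 RPM in control hairpin replicates 1, A and B and at 0.435, 0.538 and 0.763 RPM in the same cultures with 5-aza. With Setdb1 hairpins it was at 1.91, 2.95 and 1.84 RPM without and 0.307, 0.38 and 0.577 RPM with 5-aza. All 6 treated libraries were below all 6 untreated ones, by a log2 fold change of -1.75 (SE 0.30) in control and -2.42 (SE 0.30) in Setdb1 hairpin cells. These levels rested on 65 to 140 reads per untreated and 16 to 41 reads per treated library, and Nrarp passed the expression filter only through its untreated libraries. In GENCODE 78.2% of the Nrarp transcript's 31-base words occur in the opposite orientation in other genes, Gm38287 foremost. The kit as named does not mark strand, so reads of such shared sequence cannot be told apart.

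Hey2 (chromosome 10, 30832359 to 30842801) responded evenly across cultures. It was at 7.74, 10.7 and 10.1 RPM with control hairpins and 3.09, 4.95 and 4.24 RPM after 5-aza, and at 7.13, 9.34 and 8.57 RPM with Setdb1 hairpins and 2.59, 3.36 and 2.89 RPM after 5-aza. The groups did not overlap in either hairpin. The 6 culture differences lay between -1.11 and -1.57 on the log2 scale, and the control (-1.11 to -1.32) and Setdb1 cultures (-1.46 to -1.57) occupied separate ranges; their difference of -0.27 (SE 0.25) is given without a test. Hey1 (chromosome 3, 8663362 to 8667039) was at 3.19, 3.48 and 3.62 RPM with control hairpins and 1.78, 1.92 and 1.81 RPM after 5-aza. With Setdb1 hairpins it was at 3.24, 3.85 and 2.96 RPM and 1.8, 1.56 and 2.05 RPM after 5-aza. Hey1 was thus close to 53.5% of its control mean after 5-aza in control hairpin cells and 52.6% in Setdb1 hairpin cells.

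Heyl (chromosome 4, 123233556 to 123249875) varied widely between cultures. In control hairpin cells it was at 6.1, 12.7 and 13.3 RPM without and 2.38, 7.08 and 4.8 RPM with 5-aza, so that culture A after 5-aza was above replicate 1 without it. With Setdb1 hairpins it was at 4.58, 11.9 and 5.25 RPM without and 0.844, 2.82 and 1.09 RPM with 5-aza, and these groups did not overlap. Although the levels overlapped in control cells, every culture was lower with 5-aza than without it, by -0.84 to -1.47 on the log2 scale in the control and -2.08 to -2.44 in the Setdb1 cultures. The difference between the 2 responses was -1.04 (SE 0.74, no test). It was -1.56 without Setdb1 hairpin + 5-aza replicate A and -0.61 without Setdb1 hairpin replicate A. The control response of -1.22 was -1.58 when control hairpin replicate 1 was left out and -0.79 when its 5-aza library was. Hes1 (chromosome 16, 30064384 to 30067796), the target with the highest level, was an exception to the rest: 51.2 to 57.3 RPM with control hairpins, 43.7 to 52.3 RPM after 5-aza, 48.1 to 53.7 RPM with Setdb1 hairpins and 43.5 to 51.1 RPM after 5-aza. Its groups with and without 5-aza overlapped within each hairpin, and its 6 culture differences were small, from -0.27 to -0.07. In bulk RNA, fewer cells of a type and less RNA per cell cannot be told apart.

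**Figure D2:**
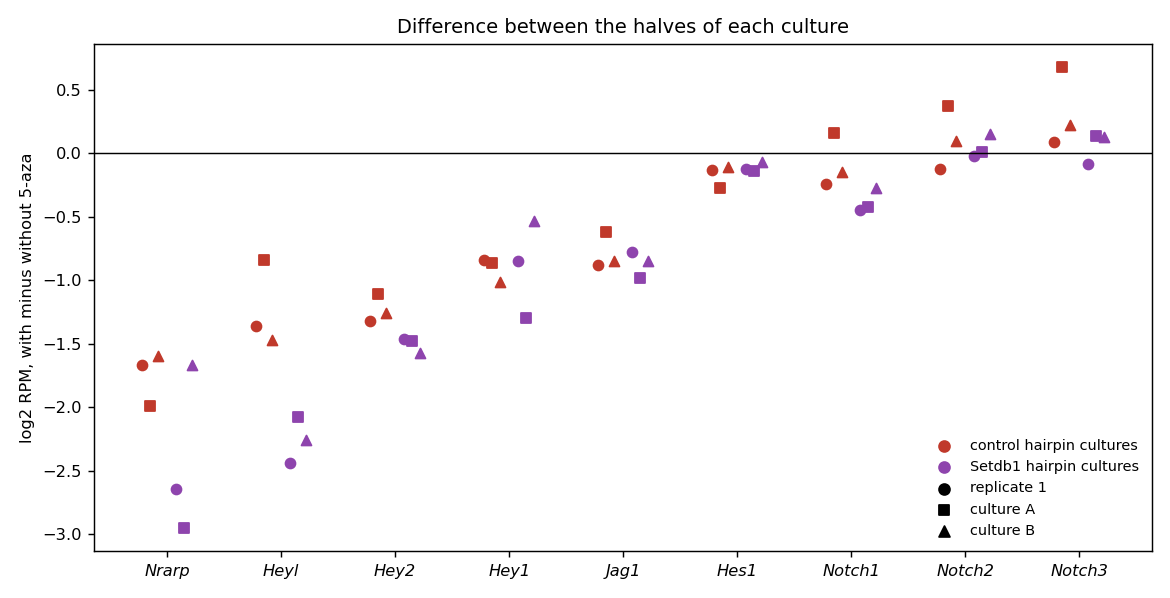
Difference in log2 RPM between the 5-aza and the untreated library of each culture (y axis) for the 9 Notch genes that passed the filter (x axis); red marks the 3 control and purple the 3 Setdb1 hairpin cultures. Nrarp, Heyl, Hey2, Hey1 and Jag1 were below 0 in all 6 cultures, from -0.53 to -2.95, Hes1 lay between -0.27 and -0.07, and the receptors lay on both sides of 0.

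Of the ligands, Jag1 (chromosome 2, 137081456 to 137116644) was at 192, 188 and 203 RPM with control hairpins and at 104, 122 and 113 RPM after 5-aza. With Setdb1 hairpins it was at 114, 152 and 132 RPM without and 66.3, 77.1 and 73.5 RPM with 5-aza. Every culture was lower with 5-aza, by -0.62 to -0.98 on the log2 scale, and no 5-aza group overlapped its untreated group. Set against the control mean, Jag1 was at 58.2% with 5-aza alone, 68.3% with Setdb1 hairpins alone and 37.2% with both. The response to 5-aza differed between the hairpins by -0.09 (SE 0.13, no test).

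The receptors differed less. Notch1 (chromosome 2, 26457903 to 26516663) was at 36.7, 38.6 and 38.8 RPM with control hairpins and 31.1, 43.3 and 35 RPM after 5-aza, so that these groups overlapped. With Setdb1 hairpins it was at 35.4, 42.3 and 33.7 RPM without and 26, 31.7 and 27.9 RPM with 5-aza, groups that did not overlap, and 5 of 6 cultures were lower with 5-aza. The interval counted for Notch1 overlaps 2 genes on the other strand, 0610009E02Rik over 1488 bases and Gm13568 over 414 bases. Notch2 (chromosome 3, 98013538 to 98150367) lay between 79.9 and 103 RPM in all 12 hairpin libraries and was lower with 5-aza in 2 of 6 cultures. Notch3 (chromosome 17, 32120820 to 32166880) was at 31.4, 29.4 and 29.6 RPM with control hairpins and 33.4, 47.2 and 34.4 RPM after 5-aza. Among Notch1, Notch2 and Notch3 it alone had all 3 treated control libraries above the untreated ones. With Setdb1 hairpins Notch3 was at 21.1, 28.7 and 23 RPM without and 20, 31.6 and 25.2 RPM with 5-aza, and these groups overlapped. Dll1 (chromosome 17, 15367354 to 15376872) had 3 to 8 reads per control hairpin library and 0 to 4 per Setdb1 hairpin library, near the 3 reads that a count of 0 allows, so no difference was detectable at this depth.

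Setdb1 and control hairpins were then compared at the same 5-aza state, which sets the Notch genes along an axis that was not used to choose them, although the libraries are the same. Without 5-aza 1 of the 9 tested genes differed, against 12.4% of all 13134 genes tested. That gene was Jag1, lower by a log2 fold change of -0.56 (SE 0.09, limma adjusted p = 0.00289), with all 3 Setdb1 hairpin libraries below all 3 controls. The median log2 fold change of the 9 genes was -0.09, and that of all genes 0.031. Hey1 differed by -0.04 (95% interval -0.31 to 0.22), Notch1 by -0.04 (-0.29 to 0.21), Hes1 by -0.09 (-0.26 to 0.08), Notch2 by 0.08 (-0.07 to 0.24), Hey2 by -0.19 (-0.57 to 0.20) and Nrarp by 0.20 (-0.45 to 0.85). These intervals exclude a 2-fold difference in either direction. Heyl, at -0.61 (-1.76 to 0.53), was measured too loosely for that, because its untreated cultures spanned 4.58 to 13.3 RPM. Notch3 was at -0.32 (-0.69 to 0.04, adjusted p = 0.24), although its Setdb1 hairpin libraries, at 21.1 to 28.7 RPM, did not overlap the controls at 29.4 to 31.4 RPM.

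With 5-aza 3 of the 9 genes (33.3%) were lower in Setdb1 hairpin cells and none was higher, against 19.9% of all genes called in either direction. Of all 13134 genes tested, 1904 were called higher and 705 lower. The median log2 fold change of the 9 genes was -0.46, against 0.047 over all genes. Jag1 was lower by -0.64 (SE 0.09, adjusted p = 0.000851), Heyl by -1.65 (SE 0.53, adjusted p = 0.0455) and Notch3 by -0.59 (SE 0.17, adjusted p = 0.0293). The groups did not overlap for Jag1 or Notch3, while the Heyl ranges of 0.844 to 2.82 and 2.38 to 7.08 RPM did. Notch1 (-0.34, adjusted p = 0.0571), Hey2 (-0.46, adjusted p = 0.0914) and Nrarp (-0.47, adjusted p = 0.28) had negative values that did not pass the threshold, and Hey1 (-0.03, 95% interval -0.30 to 0.23), Hes1 (-0.04, -0.21 to 0.13) and Notch2 (0.02, -0.14 to 0.17) were centred near 0. Jag1 passed the threshold under all 21 alternatives in both comparisons, with adjusted p up to 0.0145 without and 0.00528 with 5-aza. Heyl and Notch3 did not: without control hairpin + 5-aza replicate A or B, or without Setdb1 hairpin + 5-aza replicate 1 or B, Jag1 alone was called, and without control hairpin + 5-aza replicate 1 there were 5 genes called. Over the alternatives the adjusted p ran from 0.000274 to 0.184 for Heyl and from 0.00227 to 0.13 for Notch3.

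**Figure D3:**
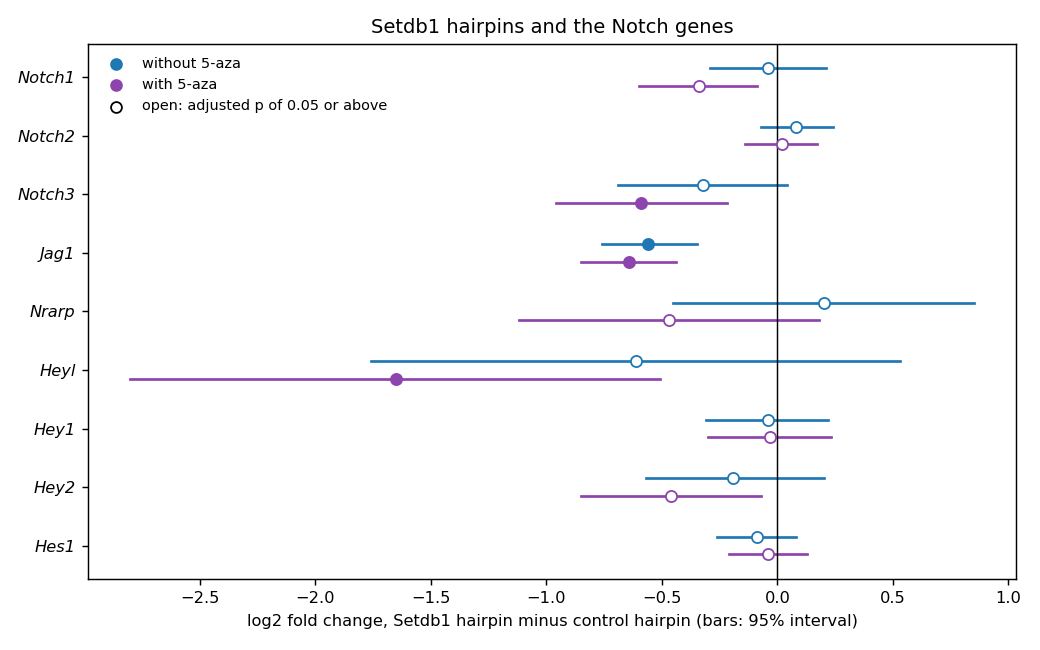
Log2 fold change of Setdb1 hairpin against control hairpin cells (x axis) for the 9 tested Notch genes (y axis), without (blue) and with 5-aza (purple); bars are 95% intervals of the fit, filled points have an adjusted p under 0.05. Jag1 was filled in both states at -0.56 and -0.64, Heyl (-1.65) and Notch3 (-0.59) only with 5-aza, and Hey1, Hes1 and Notch2 lay close to 0 in both.

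The spread of Heyl between cultures was shared with other genes. Over the 12 hairpin libraries the genes whose log2 RPM ran most closely with Heyl were Cdh11 (cadherin 11, Pearson r 0.997), Zfp532 (0.995), Itga11 (integrin alpha 11, a collagen receptor, 0.993), Wbscr17 (0.993) and Wisp1 (a secreted matrix-associated protein, 0.991). These values are a description, since the libraries share their groups and cultures. With group means removed r was 0.974 to 0.990. This is not separate support, since the genes were picked by their r over these same libraries. How many genes reach such values was not counted. Itga11 covered 5.7 to 8.53 and Heyl -0.25 to 3.73 on the log2 RPM scale. For Nrarp the closest genes were Mgll (monoacylglycerol lipase, 0.966), Fabp5 (a fatty acid binding protein, 0.965), Cmklr1 (the chemerin receptor, 0.960), Adamts12 (a secreted metalloprotease, 0.959) and Cbln1 (0.958), and with group means removed these were lower, at 0.573 to 0.862. Among the Notch genes themselves, r with group means removed was highest between Heyl and Hey2 (0.912), followed by Notch1 with Heyl (0.890) and Notch1 with Notch3 (0.880). It was 0.219 between Hey1 and Hey2, and -0.733 between Hes1 and both Heyl and Notch1.

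**Figure D4:**
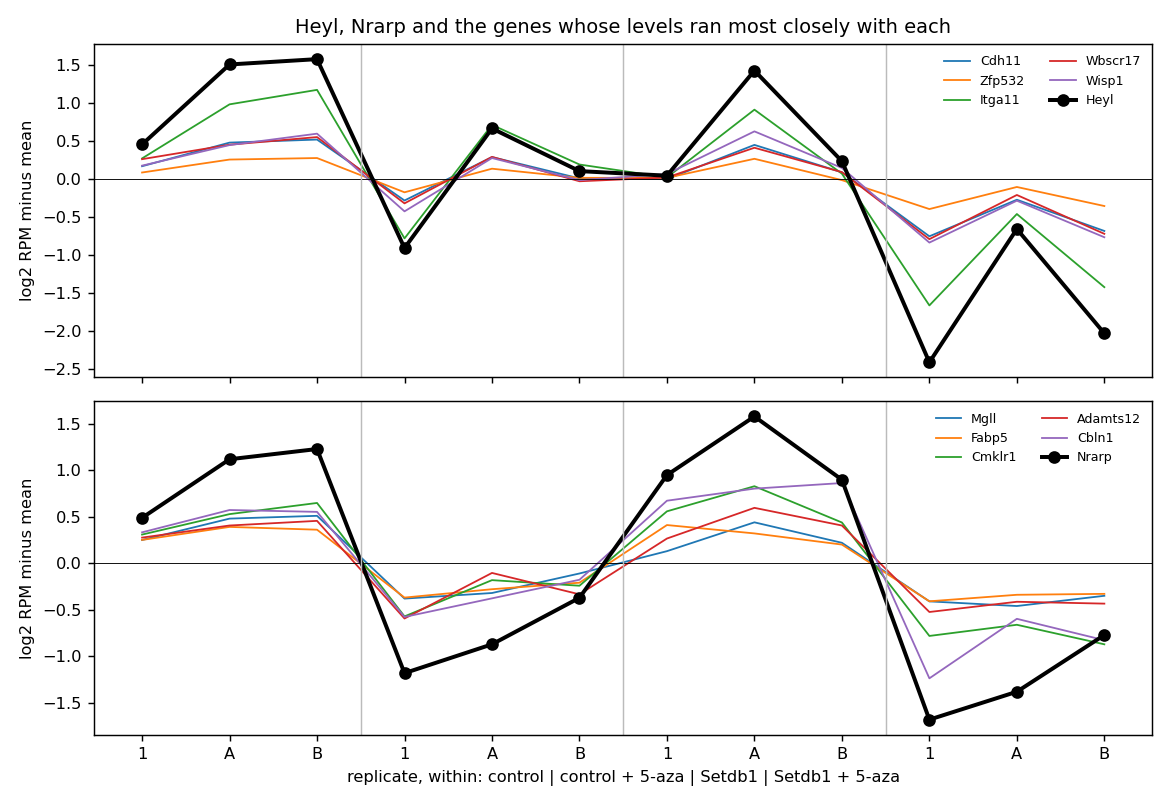
Log2 RPM minus the gene's own mean over the 12 hairpin libraries (y axis), by replicate within each group (x axis), for Heyl (top, black) and Nrarp (bottom, black) with the 5 genes most correlated with each. Heyl and its companions were highest in culture A of the 5-aza and Setdb1 hairpin groups, with Heyl from -0.25 to 3.73 log2 RPM in all, whereas the genes near Nrarp mainly separated the untreated from the treated groups.

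Marker genes of several cell types were compared in the same way. Among the 9 fibroblast markers, Thy1 alone (11.1% of the list, against 19.9% of all genes) was lower in Setdb1 than in control hairpin cells with 5-aza (-0.46, limma adjusted p = 0.0277). This is the comparison in which Heyl and Notch3 were called. In Setdb1 hairpin cells 3 of the 9 (33.3%, against 28.9% of all genes) changed with 5-aza. Col1a1 (-0.73, adjusted p = 0.0337) and Pdgfrb (-0.72, adjusted p = 0.0146) were lower and Vim (0.20, adjusted p = 0.0152) was higher. The summed fibroblast markers ranged from 16511 to 20802 RPM with control hairpins, 14864 to 22351 RPM with control hairpins and 5-aza, 18324 to 23490 RPM with Setdb1 hairpins and 14008 to 18318 RPM with both. Of the 8 smooth muscle and pericyte markers, 4 (50%, against 12.4% of all genes) differed between the hairpins without 5-aza, where of the Notch genes Jag1 was called. Des (0.53) and Rgs5 (0.55) were higher and Cspg4 (-0.26) and Mcam (-0.22) lower with Setdb1 hairpins. With 5-aza Cspg4 (-0.29) and Mcam (-0.31) were lower in Setdb1 hairpin cells (25%, against 19.9% of all genes). Between treated and untreated cells, Des was higher (0.93) and Cspg4 lower (-0.23) with 5-aza under control hairpins (25%, against 18.8% of all genes). Under Setdb1 hairpins Des was higher (0.36) and Cspg4 (-0.25) and Mcam (-0.20) lower with 5-aza (37.5%, against 28.9% of all genes). The list summed to 11581 to 12073 RPM with control hairpins, 10780 to 12086 RPM after 5-aza, 10216 to 11526 RPM with Setdb1 hairpins and 9982 to 10891 RPM with both.

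Of the 3 tested endothelial markers 1 (33.3%) was called. All genes were called at 18.8% and 28.9% with 5-aza in control and Setdb1 hairpin cells, and at 19.9% between hairpins with 5-aza. Kdr and Tek were tested and not called, at 0.474 to 2.09 and 0.947 to 3.53 RPM in the hairpin libraries. The median log2 fold change of the 3 with 5-aza was -0.75 in control and -0.11 in Setdb1 hairpin cells. Emcn fell with 5-aza from 3.43 ± 0.812 to 1.58 ± 0.0862 RPM in control hairpin cells (-1.09, adjusted p = 0.00159) and by 1.52 on the log2 scale in Setdb1 hairpin cells, and with 5-aza it was lower under Setdb1 than under control hairpins (-0.55, adjusted p = 0.0465). Among the untested ones Cdh5, the endothelial cadherin, went from 0.324 ± 0.15 to 0.987 ± 0.0686 RPM after 5-aza under control hairpins, and was at 0.256 ± 0.0529 and 0.872 ± 0.102 RPM under Setdb1 hairpins. Esam went from 0.159 ± 0.0446 to 0.328 ± 0.102 RPM and from 0.203 ± 0.0563 to 0.537 ± 0.088 RPM in the same order, and Pecam1 was at 0.0954 RPM or below except with Setdb1 hairpins and 5-aza together, where it was at 0.373 ± 0.0706 RPM. The 7 markers summed to 7.24 to 8.41 RPM with control hairpins, 4.45 to 6.71 RPM after 5-aza, 6.42 to 6.95 RPM with Setdb1 hairpins and 4.92 to 6.51 RPM with both. The macrophage list summed to 10 to 10.5, 11.5 to 13.7, 10 to 11 and 13.2 to 14 RPM in these groups, and Csf1r was higher with 5-aza under both hairpins (0.27 and 0.29, adjusted p = 0.022 and 0.0121) and Cd68 under Setdb1 hairpins (0.52, adjusted p = 0.0281).

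Of the 4 neural markers 3 were tested. Without 5-aza Nes was higher with Setdb1 hairpins by 0.38 (limma adjusted p = 0.0179) and Tubb3 by 0.43 (adjusted p = 0.035). Sox2 passed the filter through Setdb1 hairpin libraries alone and is given as a value. It held 0.18 ± 0.0125 RPM with control and 2.14 ± 0.313 RPM with Setdb1 hairpins. With 5-aza Sox2 was at 0.202 ± 0.0408 and 1.38 ± 0.396 RPM in the same order, and neither Nes nor Tubb3 was called between the hairpins. Nes was higher with 5-aza in control hairpin cells (0.34, limma adjusted p = 0.0221). The neural list summed to 295 to 354 RPM with control hairpins, 368 to 421 RPM after 5-aza, 394 to 450 RPM with Setdb1 hairpins and 449 to 521 RPM with both, with Sox10 at 2 reads or fewer. Of the 4 epithelial markers 2 were tested. Krt18 was higher with 5-aza under both hairpins (1.64 and 1.03) and with Setdb1 hairpins in both 5-aza states (1.74 and 1.14). Krt8 passed the filter only through the Setdb1 hairpin libraries with 5-aza, at 2.3 ± 0.509 RPM against 0.0202 ± 0.00217 RPM with control hairpins and no 5-aza, and is given as a value. The list summed to 2.65 to 3.18 RPM with control hairpins, 8.59 to 10.6 with control hairpins and 5-aza, 9.62 to 10.5 with Setdb1 hairpins and 20.7 to 23.5 RPM with both, with Cdh1 at 3 reads or fewer except with both. Whether these marker values reflect cells of the named types, and their part in the Notch gene results, was not tested.

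Beyond these genes, 51 genes of the pathway were listed, of which 40 passed the filter. With 5-aza 9 of the 40 changed in control hairpin cells, 8 higher and 1 lower, against 18.8% of all genes (22.5% of the list, median log2 fold change 0.01). In Setdb1 hairpin cells 9 changed, 7 higher and 2 lower, against 28.9% of all genes (22.5% of the list, median 0.02). Both counts of higher genes include Notch4, which passed the filter only through libraries with 5-aza, the state in which it was higher. With the culture as a replicate block, an alternative, the count in Setdb1 hairpin cells was 14. Rbpj, the DNA-binding protein of the pathway, rose with 5-aza in both: control hairpin cells held 149 ± 8.54 RPM before and 181 ± 7.12 RPM after 5-aza (log2 fold change 0.28, SE 0.06, adjusted p = 0.00793). With Setdb1 hairpins these levels were 164 ± 12.7 and 204 ± 5.74 RPM (0.32, SE 0.06, adjusted p = 0.00294). Rbpj was higher in all 6 cultures, the same in which Nrarp, Hey1, Hey2 and Heyl were lower. Of the Rbpj transcript's 31-base words in GENCODE, 11.4% occur in the same orientation in other genes, the pseudogene Rbpj-ps3 foremost.

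Notch4, a receptor best known from endothelium, passed the expression filter only through libraries with 5-aza, so its values are a description, although it is among the genes counted as higher in both hairpins. It was at 0.489, 0.583 and 0.475 RPM in control hairpin replicates 1, A and B and at 0.995, 1.08 and 0.856 RPM after 5-aza, a log2 difference of 0.92 (SE 0.16) that became 0.48 with quantile normalization. Under Setdb1 hairpins it went from 0.743 ± 0.128 to 1.32 ± 0.0709 RPM (0.84, SE 0.16). The groups did not overlap in either hairpin. Notch4 rested on 22 to 73 reads per library, far fewer than the other receptors. Neurl1a, an E3 ubiquitin ligase related to the fly ligand-endocytosis factor Neuralized, rose by 0.32 (SE 0.09, limma adjusted p = 0.0343) in control cells, where alternatives gave an adjusted p of up to 0.186. In Setdb1 hairpin cells it rose by 0.70 (SE 0.09, adjusted p = 0.000524). Of its transcript's 31-base words, 10% occur in the same orientation in other genes. Dlk2, a membrane protein related to the ligands, rose in Setdb1 hairpin cells (0.67, SE 0.16, adjusted p = 0.0103), with 0.29 (adjusted p = 0.221) in control cells. The ligand genes Jag2, Dll3 and Dll4 were not tested; Jag2, at 4 to 29 reads per library, was higher with 5-aza in 6 of 6 cultures, and Dll3 and Dll4 had at most 2 reads. Maml2, a Mastermind coactivator named here after its values were seen, was the gene called lower in both: 66 ± 1.77 to 50.1 ± 4.51 RPM in control (-0.40, adjusted p = 0.00145) and 56.4 ± 2.55 to 40.5 ± 2.25 RPM in Setdb1 hairpin cells (-0.48, adjusted p = 0.000526).

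Psenen, which encodes the smallest subunit of gamma-secretase, was the single pathway gene whose response to 5-aza differed between the hairpins, where 0.388% of all genes did. All 51 genes called for this difference had the lower response with Setdb1 hairpins, as Psenen did. In control hairpin cells it went from 1.13 ± 0.00882 RPM to 3.16 ± 0.122 RPM after 5-aza (1.48, SE 0.11, adjusted p = 6.73e-06). With Setdb1 hairpins it was at 1.2 ± 0.0647 and, after 5-aza, 1.44 ± 0.155 RPM (0.25, SE 0.11, adjusted p = 0.0888). The difference of the responses was -1.22 (SE 0.15, adjusted p = 0.00274). It ran from -1.28 to -0.82 over the alternatives that tested Psenen. Of the Psenen transcript's 31-base words, 20.4% occur in the same orientation in other genes, Gm12396 foremost, and 6.64% in the opposite one.

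**Figure D5:**
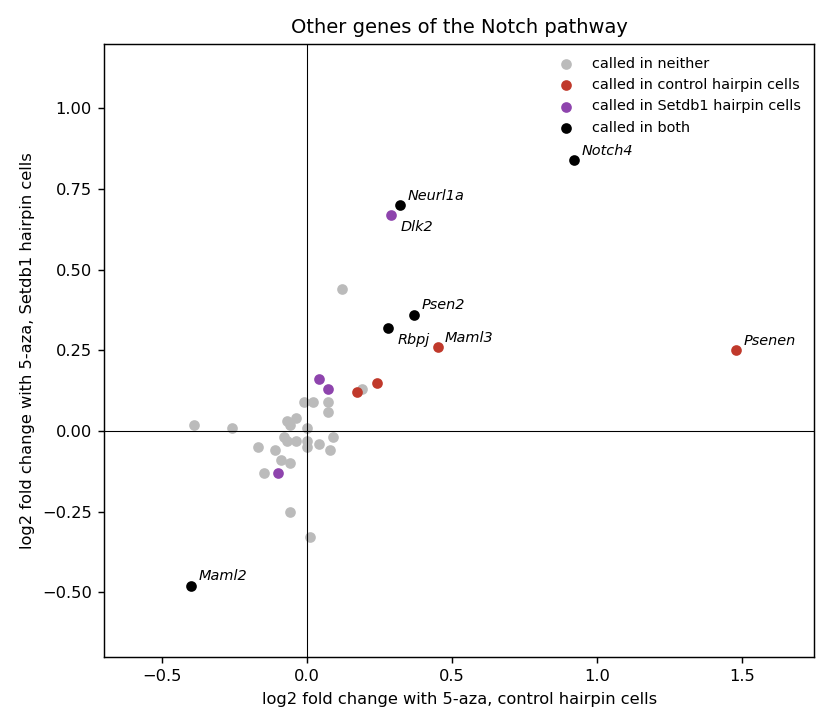
Log2 fold change with 5-aza in control (x axis) and Setdb1 hairpin cells (y axis) of the 40 tested pathway genes that are not among the 10 Notch genes; black marks genes with an adjusted p under 0.05 in both, red and purple in one. Most lay near 0, Notch4 (0.92 and 0.84) was high in both, Maml2 (-0.40 and -0.48) low in both, and Psenen (1.48 and 0.25) stood apart in control hairpin cells. Notch4 passed the filter only through libraries with 5-aza, so its point is a description.

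Between Setdb1 and control hairpins 3 of the 40 pathway genes differed without 5-aza (7.5%, 1 higher and 2 lower, median -0.03) and 6 with it (15%, 2 higher and 4 lower, median 0.00), shares below the 12.4% and 19.9% of all genes. Past a log2 fold change of 0.5 there were Neurl1a (0.67, SE 0.09, adjusted p = 0.000609) and Psenen (-1.14, SE 0.11, adjusted p = 3.03e-05), both with 5-aza. The rest of the called genes changed by less. Rbpj was at 0.14 (SE 0.06, adjusted p = 0.151) without and 0.18 (SE 0.06, adjusted p = 0.0514) with 5-aza.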

How the data were processed

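The authors deposited 1 log2 RPM value (log2 of the reads per gene scaled to a common library total) per gene and library for 13 libraries. Per the labels, poly(A) RNA was prepared with Illumina TruSeq RNA; the submitters' processing notes name mm10 and CASAVA 1.4, and the aligner, counting and strand setting of this table are not given in the sources used here. Where no read was counted the table holds 0.9 read, and 100% of the other values of up to 1000 reads were whole to within 0.01 read, from which reads were recovered. A gene was tested if 3 or more hairpin libraries reached 1 RPM, which left 13134 genes. Its log2 RPM in the 12 hairpin libraries entered limma (version 3.58.1, R 4.3.3; linear fit, contrasts and empirical Bayes with a trend), with the 4 groups in 1 model, 5 contrasts, two-sided, Benjamini-Hochberg over all genes tested, threshold 0.05. The fit was tested on simulated data. The members and gene lists were chosen with earlier results of these data known. Named were the 10 members, listed pathway genes past a log2 fold change of 0.5 with an adjusted p under the threshold in any tested contrast, Rbpj, and the 5 genes most correlated with Nrarp and with Heyl. Residuals of the cultures' pairs, across genes, correlated at 0.4719, 0.6342 and 0.4127 in Setdb1 hairpin cells and at 0.5863, 0.1487 and 0.0999 in control cells. Between the hairpins, libraries of the same label with 5-aza correlated at 0.4840 (replicate 1), 0.6858 (A) and -0.0197 (B). Without 5-aza these were 0.0979, 0.1901 and -0.4703. The correlations therefore do not show which libraries were paired, and the replicate block is given as an alternative only. Nothing says that replicates came from separate embryos, so p-values measure only the spread between these libraries, and counting limits cover counting error only. Exon lengths and shared sequence came from GENCODE M21 (GRCm38), in which all 99 listed genes were found, and may differ from what the authors counted. Positions are 1-based. A single 5-aza library whose labels name no hairpin entered no comparison. Figures were made with Python 3.11.15 and matplotlib 3.10.9.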

Additional observations from a re-analysis of the deposited data

Results flagged for a closer look

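Psenen was singled out because its response to 5-aza differed between control and Setdb1 hairpin cells by -1.22 on the log2 scale (SE 0.15, limma adjusted p = 0.00274), with 1.43 to 1.55 in the 3 control and 0.12 to 0.36 in the 3 Setdb1 hairpin cultures. Psenen rested on 49 to 166 reads per library. The direction was that of all 51 genes called for this difference.

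A 5-aza library whose labels name no hairpin, outside every comparison, was above all 12 hairpin libraries for 3 Notch genes. Its column in the table is named for PGK, the strain whose X chromosome the study used to call variants, so strain, genotype, hairpin and 5-aza cannot be told apart in it. Notch1 was at 55.5 RPM there, against 26 to 43.3 RPM in the hairpin libraries. Notch2 was at 105 RPM, against 79.9 to 103 RPM. Dll1 was at 0.294 RPM, 6 reads, against at most 8 reads in the deeper hairpin libraries. In the same library the 6 macrophage markers summed to 50.6 RPM, against 10 to 14 RPM, and their part in these values was not tested.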

How the results depend on the processing

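Of 43 tested log2 fold changes of single genes recomputed under 21 alternatives, 874 values resulted, of which 811 kept direction and side of the threshold, 28 lost and 20 gained the call, and 15 changed sign; of 552 untested values, 543 moved by less than the spread between replicates and 13 changed sign, the cause not tested. Without 5-aza the count of Notch and pathway genes that differed between hairpins was 4 (1 higher, 3 lower), 7 with median centring, and 2 to 6 with 1 library left out. With 5-aza the 3 Notch genes called became 1 with only the groups compared in the fit, 5 with the replicate block by letter, and 1 to 5 with 1 library left out. For pathway genes with 5-aza in Setdb1 hairpin cells, 9 became 14 with the culture as replicate block. In control hairpin cells the block gave 11, and median centring gave 6 higher and 5 lower against 8 and 1. The interaction count was 0 at a minimum of 5 RPM, where Psenen was not among the genes tested. Sign changes were all between small values. Notch2 with 5-aza went to -0.04 with median centring, -0.02 with quantile normalization and -0.04 to 0.09 with 1 library left out. The Notch4 interaction went to 0.03 with log2(RPM + 1), 0.23 with quantile normalization and -0.19 to 0.05 with 1 library left out. Leaving out 1 library gave Notch1 -0.14 to 0.03, Nrarp -0.03 to 0.34 and Hey1 -0.15 to 0.04 without 5-aza, Hey1 -0.13 to 0.07 and Hes1 -0.11 to 0.03 with it, and Rbpj -0.02 to 0.09 in the interaction. Nrarp after 5-aza was -0.89 and -1.17 in control and Setdb1 hairpin cells with log2(RPM + 1), since its level is near 1 RPM. Voom on the recovered reads was chosen after seeing the data and called 2 of the Notch genes with 5-aza. The planned count model was not run, since the deposited unit is log2.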

Other observations

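In the 5-aza library whose labels name no hairpin, Nrarp was at 1.47, Heyl at 12.2, Hey1 at 3.58 and Hey2 at 4.02 RPM. The first 3 lay above each of the 6 hairpin libraries with 5-aza, and Hey2 lay within their range of 2.59 to 4.95 RPM. Hes1 was at 39.8 RPM, below the lowest hairpin library at 43.5 RPM. Jag1 was at 104 RPM, beside the lowest of the control hairpin libraries with 5-aza (104 to 122 RPM), and Notch3 was at 41.9 RPM. The library is a single sample with 17.4 M reads in genes, and it was not compared with a group.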
